A study of Mus musculus with 6 samples.

Results

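The genes described here encode the NF-κB transcription factor family, proteins of the IκB family and A20. They comprise the 5 subunit genes Nfkb1, Nfkb2, Rel, Rela and Relb, and 5 genes grouped here as inhibitors. These are Nfkbia, Nfkbie, Nfkbiz and Nfkbid of the IκB family and Tnfaip3, which encodes the ubiquitin-editing enzyme A20. The grouping goes by family, and the product of Nfkbiz acts as a coactivator. The 10 genes were chosen by name among the 41669 gene symbols of the deposited table, and all 10 passed the low-count filter that left 12172 genes for testing. RNA had been sequenced from 3 female and 3 male mice of the NZB/W F1 hybrid, which develops a lupus-like disease. All were at the late stage of disease, and no untreated, early or healthy group is used here. Their spleen B cells, taken by positive selection on a column, had all been cultured with CpG for 24 h before RNA was extracted. CpG DNA is a ligand of Toll-like receptor 9. The labels used here give the stage of disease and no age, and each library came from a separate mouse.

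NF-κB subunits work as dimers. In resting cells the IκB proteins IκBα (from Nfkbia) and IκBε (from Nfkbie) hold these dimers in the cytoplasm, and signalling from Toll-like receptors, the B cell receptor or CD40 leads to degradation of the inhibitor and entry of the dimer into the nucleus. Several inhibitor genes are themselves NF-κB target genes, so the pathway restrains its own activity. A20 removes or edits ubiquitin chains upstream of the IκB kinase, and loss of A20 in B cells is known to lead to autoimmunity in mice. In the noncanonical arm, the p100 precursor made from Nfkb2 holds RelB until it is processed to p52.

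On GRCm38 (GENCODE M21) the subunit genes lie at chr3:135584655-135691547 (Nfkb1, minus strand), chr19:46304320-46312385 (Nfkb2, plus), chr11:23736847-23770970 (Rel, minus), chr19:5637483-5648130 (Rela, plus) and chr7:19606217-19629438 (Relb, minus). The inhibitor genes lie at chr12:55489410-55492647 (Nfkbia, minus), chr17:45555703-45563169 (Nfkbie, plus), chr16:55811375-55838899 (Nfkbiz, minus), chr7:30421732-30428746 (Nfkbid, plus) and chr10:19000910-19015657 (Tnfaip3, minus). None is on the X or Y chromosome.

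Because several of these genes are known NF-κB targets, their promoters were searched for κB sites. Windows of 300 bases, running from 250 bases before to 50 bases after an annotated start, came from RefSeq on GRCm38.p6, which is the reference strain and not NZB/W F1. Of the 10 genes, 7 had at least 1 window in that table and together had 12 windows, while Nfkb1, Relb and Nfkbiz had none. The κB consensus, a motif of 10 bases named here without its letters because it needs ambiguity codes, was searched on both strands, as was a relaxed form that allows A or G at the third base. The relaxed form takes in every match of the consensus. A consensus match lay in 8 of the 12 windows, against 8.46% of 32851 windows of all genes. By gene, 6 of the 7 held a match, against 9.55% of 27025 genes, and genes with several windows had more chances to hold one. The windows of Rel and Nfkb2 are shown because these were the subunit genes with the highest and the lowest level, that of Rela because it was the 1 gene of the 7 without a match, and those of Nfkbia, Nfkbie and Tnfaip3 because they are the inhibitors discussed most below. Tnfaip3 had a further window without a match, and Nfkb2 had 2 further windows that overlap and hold the same matched site, so that this site counts in both. Matches of either form are in capitals, each sequence reads 5′ to 3′ on the gene's strand, and overlapping matches run together.
Rel promoter, chr11:23770920-23771219, minus strand: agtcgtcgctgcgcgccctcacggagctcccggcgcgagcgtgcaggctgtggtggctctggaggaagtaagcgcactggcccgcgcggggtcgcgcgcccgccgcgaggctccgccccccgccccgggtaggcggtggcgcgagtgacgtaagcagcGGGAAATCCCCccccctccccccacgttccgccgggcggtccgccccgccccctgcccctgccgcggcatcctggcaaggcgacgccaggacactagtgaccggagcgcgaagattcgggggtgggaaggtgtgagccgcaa
Nfkb2 promoter, chr19:46304487-46304786, plus strand: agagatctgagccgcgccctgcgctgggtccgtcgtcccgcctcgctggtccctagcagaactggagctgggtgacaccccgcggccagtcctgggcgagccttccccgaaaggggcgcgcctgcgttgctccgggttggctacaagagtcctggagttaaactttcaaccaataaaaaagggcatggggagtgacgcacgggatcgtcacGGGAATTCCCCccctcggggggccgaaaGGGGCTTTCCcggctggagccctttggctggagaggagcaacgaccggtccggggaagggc
Rela promoter, chr19:5637291-5637590, plus strand: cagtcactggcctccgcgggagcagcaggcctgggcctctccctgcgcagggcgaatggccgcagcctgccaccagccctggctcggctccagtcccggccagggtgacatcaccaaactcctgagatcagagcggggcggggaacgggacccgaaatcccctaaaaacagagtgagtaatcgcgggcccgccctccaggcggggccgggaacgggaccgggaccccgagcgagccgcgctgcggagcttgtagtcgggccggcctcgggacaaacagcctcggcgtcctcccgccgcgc
Nfkbia promoter, chr12:55492598-55492897, minus strand: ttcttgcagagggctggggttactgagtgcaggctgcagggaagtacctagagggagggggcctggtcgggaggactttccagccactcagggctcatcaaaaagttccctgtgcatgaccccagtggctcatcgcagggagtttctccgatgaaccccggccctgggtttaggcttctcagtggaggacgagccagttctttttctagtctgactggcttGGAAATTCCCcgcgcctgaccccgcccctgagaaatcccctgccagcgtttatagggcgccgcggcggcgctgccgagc
Nfkbie promoter, chr17:45555450-45555749, plus strand: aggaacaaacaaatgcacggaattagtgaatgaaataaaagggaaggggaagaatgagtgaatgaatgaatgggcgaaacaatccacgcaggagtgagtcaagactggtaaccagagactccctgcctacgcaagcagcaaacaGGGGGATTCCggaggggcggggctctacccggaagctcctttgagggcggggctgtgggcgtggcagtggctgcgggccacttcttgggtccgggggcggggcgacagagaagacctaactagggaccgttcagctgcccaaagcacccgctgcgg
Tnfaip3 promoter, chr10:19015361-19015660, minus strand: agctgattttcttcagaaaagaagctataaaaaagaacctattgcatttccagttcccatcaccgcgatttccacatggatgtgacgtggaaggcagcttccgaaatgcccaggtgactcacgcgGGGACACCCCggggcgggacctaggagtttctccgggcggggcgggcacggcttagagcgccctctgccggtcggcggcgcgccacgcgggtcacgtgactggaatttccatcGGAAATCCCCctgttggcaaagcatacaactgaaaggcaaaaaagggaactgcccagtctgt

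Positions are counted from the start site, with -1 for the base before it. The matched stretch began at -92 in Rel, at -29 in Nfkbia and at -106 in Nfkbie. Tnfaip3 held separate matches beginning at -125 and -12, and the Nfkb2 window held stretches beginning at -39 and -11. These matches describe the reference sequence, and binding of a factor was not measured. Among the 7 genes searched, Rel and Nfkb2, with the highest and the lowest mean CPM (defined below), both held matches. Nfkb1, Relb and Nfkbiz could not be searched.

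Library totals ran from 24089561 to 35659883 estimated counts, so that 3 counts, taken as the lowest level distinguishable from 0, corresponded to 0.0841 to 0.125 CPM (the estimated count divided by the library total and multiplied by 1e6). Female replicate 3 stood apart on the first principal component (score 94.2, others -47.9 to 6.66), and results are therefore also given without it. The B cell label was checked with 10 marker genes, all above 3 counts in every library and summing to 2480 to 2669 CPM in females and 2502 to 2694 CPM in males. Their levels were uneven. Ms4a1 was at 1424 to 1658 CPM and Pax5 at 497 to 591 CPM, whereas Cd79a was at 4.61 to 29.4 CPM and Cd74, the invariant chain that is normally abundant in B cells, at 1.33 to 28.3 CPM. Monocyte and macrophage markers, of which 4 of 10 were above 3 counts in every library, summed to 4.38 to 9.77 CPM in females and 2.15 to 3.03 CPM in males. T cell markers, with 4 of 9 above 3 counts throughout, summed to 4.69 to 8.11 and 4.05 to 5.46 CPM. Erythroid markers, 0 of 6 above 3 counts throughout and Hba-a2 at 0, also had every female sum above every male one (0.718 to 2.34 against 0.0178 to 0.422 CPM). The sums for NK cells (1 of 5 markers above 3 counts throughout, Ncr1 and Prf1 at 0), neutrophils (0 of 6, Elane and Camp at 0) and dendritic cells (2 of 5, Batf3 at 0) were at most 7.45 CPM and overlapped between the sexes. The part of other cells in the values below was not tested. In bulk RNA, fewer cells of a type and less RNA per cell cannot be told apart.

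Among the subunit genes, Rel and Nfkb1 were abundant, and the other 3 were scarce. Rel, which encodes c-Rel, the subunit most typical of lymphocytes, was at 381, 441 and 390 CPM in female replicates 1 to 3 and at 381, 690 and 378 CPM in male replicates 1 to 3. The values lay close together except for male replicate 2, and the sexes overlapped. Nfkb1, the gene of p105 and p50, was at 140, 120 and 75.0 CPM in females and at 123, 122 and 113 CPM in males. Here female replicate 3 lay below the other 5 libraries. The males differed little from each other (119 ± 5.42 CPM, SD, n = 3).

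Rela, Relb and Nfkb2 were each below 5 CPM in every library. Rela, which encodes the p65 subunit of the classical dimer, was at 4.49, 2.26 and 0.311 CPM in females and at 3.24, 2.00 and 2.07 CPM in males, the lowest value resting on 11.1 estimated counts. Both its highest and its lowest value were from females, with a 14.4-fold range. Relb, the partner of p52 in the noncanonical arm, was at 1.88, 0.538 and 0.385 CPM in females and at 1.05, 0.749 and 1.20 CPM in males. Nfkb2 had 38.1, 0 and 0 estimated counts in females and 46.7, 13.9 and 0 in males, which is 1.58 and 1.48 CPM in replicate 1 of each sex and 0.506 CPM in male replicate 2. The zeros allow up to 0.102, 0.0841 and 0.0903 CPM in female replicates 2 and 3 and male replicate 3. Such an uneven pattern, with both 0 and 38.1 counts among females, gives no usable comparison for Nfkb2, and a 0 from an estimate of this kind need not be an absence of reads.

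The inhibitors spanned a similar range. Nfkbiz, the gene of the nuclear protein IκBζ, a coactivator of selected NF-κB targets, was at 326, 472 and 488 CPM in females and at 418, 399 and 410 CPM in males. The males lay between female replicate 1 and the other females. Nfkbia was at 73.6, 71.3 and 64.5 CPM in females and at 80.3, 115 and 85.4 CPM in males, so every female lay below every male on this scale. Nfkbie showed the same arrangement at a lower level, with 2.60, 1.88 and 1.44 CPM in females and 2.76, 3.54 and 2.99 CPM in males. The order of the 6 libraries was the same for both genes, from male replicate 2 at the top to female replicate 3 at the bottom. Nfkbid, the gene of the nuclear protein IκBNS, was at 7.71, 3.66 and 1.14 CPM in females and at 5.64, 4.20 and 4.77 CPM in males. Tnfaip3 was at 68.6, 34.6 and 28.5 CPM in females and at 51.4, 43.3 and 54.3 CPM in males. For both Nfkbid and Tnfaip3, female replicate 1 was the highest and female replicate 3 the lowest of the 6 libraries.

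**Figure D1:**
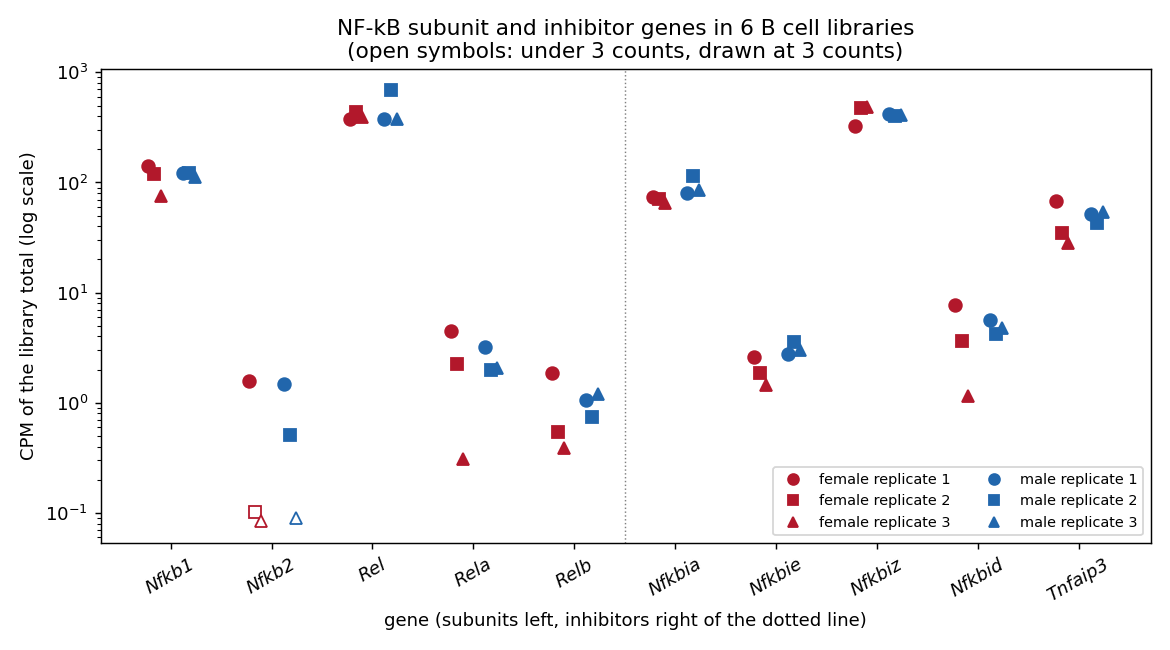
CPM of the library total (log axis) of the 5 subunit genes and the 5 inhibitor genes, with 1 symbol per library (red, female and blue, male), open where a library held under 3 counts. Rel and Nfkbiz lie above 300 CPM in all 6 libraries, Rela, Relb and Nfkb2 lie below 5 CPM in all of them, and the sexes are separated only for Nfkbia and Nfkbie.

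To compare levels between genes, CPM was divided by the length of the longest annotated transcript. Nfkbiz had the highest level per length, 102 ± 14 CPM per kb (SD, n = 6 libraries), and was above Rel, at 59.4 ± 16.5, in 6 of 6 libraries. Nfkbia followed at 51.8 ± 11.4 CPM per kb and lay below Rel in 5 of 6 libraries, so the order of these neighbours did not hold throughout. Nfkb1 (27.8 ± 5.25), Tnfaip3 (7.54 ± 2.34) and Nfkbid (2.22 ± 1.07) came next and kept this order in every library. Rela (0.881 ± 0.514) and Nfkbie (0.843 ± 0.253) could not be ordered, with Rela higher in 3 of 6 libraries. Relb (0.296 ± 0.165) lay below Nfkbie in all 6, and was above Nfkb2 (0.155 ± 0.195) in 5 of 6. In all, 6 of 9 neighbouring pairs kept their order in every library. With the median transcript length in place of the longest, Nfkbia (71.7 CPM per kb) moved above Rel (59.4), and Rela (3.05) above Nfkbid (2.25).

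Among all tested genes, the level per length of Nfkbiz was at the 95.4th percentile, that of Rel at the 91.8th and that of Nfkbia at the 90.5th, against the 27.1th for Rela, the 13th for Relb and the 6.12th for Nfkb2. Rel made up most of the summed level per length of the 5 subunit genes, with 66.3 ± 7.85% in females and 67.0 ± 7.12% in males. Nfkb1 made up 32.2 ± 6.51% and 31.4 ± 6.50%, and Rela 0.997 ± 0.866% and 1.00 ± 0.425% (SD, n = 3 per sex). All shares use the longest transcript and depend on that length. With the median transcript length, mean levels were 59.4 CPM per kb for Rel, 41.8 for Nfkb1 and 3.05 for Rela. With the longest they were 59.4, 27.8 and 0.881 CPM per kb. Within the inhibitor group, Nfkbiz, the gene of a coactivator, took 65.4 ± 8.33% of the summed level in females and 58.6 ± 4.17% in males, and Nfkbia 28.2 ± 4.24% and 34.7 ± 5.09%. The shares of each of these genes overlapped between the sexes, and they were not tested.

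The scarce genes were also those with GC-rich transcripts. The longest transcript held 42.5% G and C bases for Rel, 44.9% for Nfkb1, 47.1% for Tnfaip3 and 50.1% for Nfkbiz, but 55.4% for Nfkbie, 56.8% for Relb, 57.1% for Nfkbid and 59.4% for both Rela and Nfkb2. Nfkbia, at 52.9%, was the exception with a high level. Over the 10 genes, the level per length and the GC content had a Spearman correlation of -0.77, a description of 10 points that share the same 6 libraries. Over 12022 tested genes with a known transcript it was -0.35, and the median level per length fell from 11.6 CPM per kb in the quartile with the least GC (up to 43.8%) to 7.34, 3.52 and 1.15 CPM per kb in the next ones. Of the 10 genes, 6 lay in the highest quartile, from 52.7% upwards. Among the B cell markers, the low Cd74 and Cd79a had 56.6% and 54.9% GC, and the high Ms4a1 had 40.6%. Pax5, also high, had 50.6%, near the 52.1% of Cd22, which was at 10.4 to 42.3 CPM. The part of GC content in these levels was not tested.

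**Figure D2:**
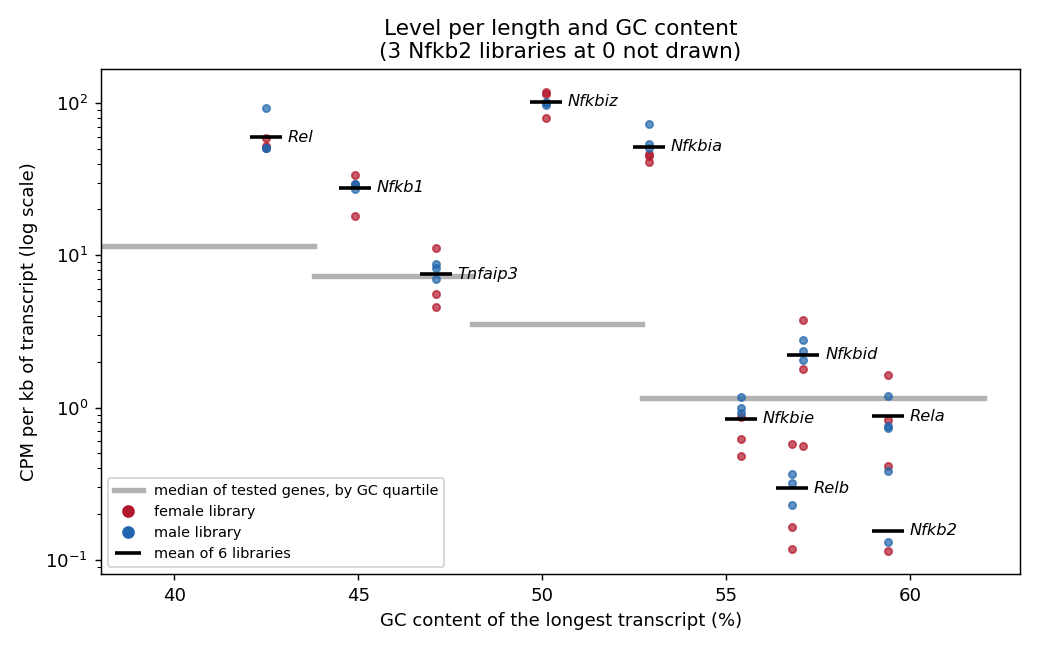
Level per length (CPM per kb of the longest transcript, log axis) against GC content of that transcript for the 10 genes, with 1 point per library, a black bar for the mean of 6 libraries and grey bars for the median of tested genes in each GC quartile, the outer quartiles drawn within the axis range. Rel, Nfkb1, Nfkbiz and Nfkbia have means well above the grey bar of their quartile, and Rela, Nfkbie, Relb and Nfkb2 have means below it. Of these last genes, Rela has points above the bar in female replicate 1 and male replicate 1, and Nfkbie in male replicate 2.

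GC content also went with the deviation of female replicate 3. Its CPM of the library total, divided by the mean of the other 5 libraries (0.1 CPM added to both), was 0.141 for Rela, 0.234 for Nfkbid, 0.410 for Relb and 0.541 for Nfkbie. It was 0.858 for Rel and 1.21 for Nfkbiz, the single gene of the 10 that was higher there on this scale. Over the 10 genes, this deviation had a Spearman correlation of -0.87 with GC content, again a description, and over the 12022 tested genes it was -0.58. On the same scale, female replicate 3 was the lowest library for 7 of the 10 genes and for 51.4% of all tested genes. Nfkb2 was at 0 there and in a pair of other libraries. Female replicate 1 was the highest for 6 of the 10 (Nfkb1, Nfkb2, Rela, Relb, Nfkbid and Tnfaip3) and for 29.2% of tested genes. Its deviation over tested genes went with GC content in the opposite direction to that of female replicate 3. The median log2 ratio of female replicate 1 to the males and female replicate 2 was -0.09, -0.01, 0.12 and 0.34 from the lowest to the highest GC quartile. With the TMM factors used in the tests (0.816 for female replicate 3), Rel was also above its mean in female replicate 3, by 0.14 in log2 CPM. The lowest library was then female replicate 1 for Nfkbia (68.7 CPM) and female replicate 2 for Tnfaip3 (34.8 CPM, 34.9 in female replicate 3). Without female replicate 3, the variation between libraries (SD as a percentage of the mean) fell from 58.3 to 37.8% for Rela, from 48.2 to 30.5% for Nfkbid and from 18.9 to 8.17% for Nfkb1, but changed little for Rel (27.8 and 29.6%) and Nfkbiz (13.8 and 12.9%).

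**Figure D3:**
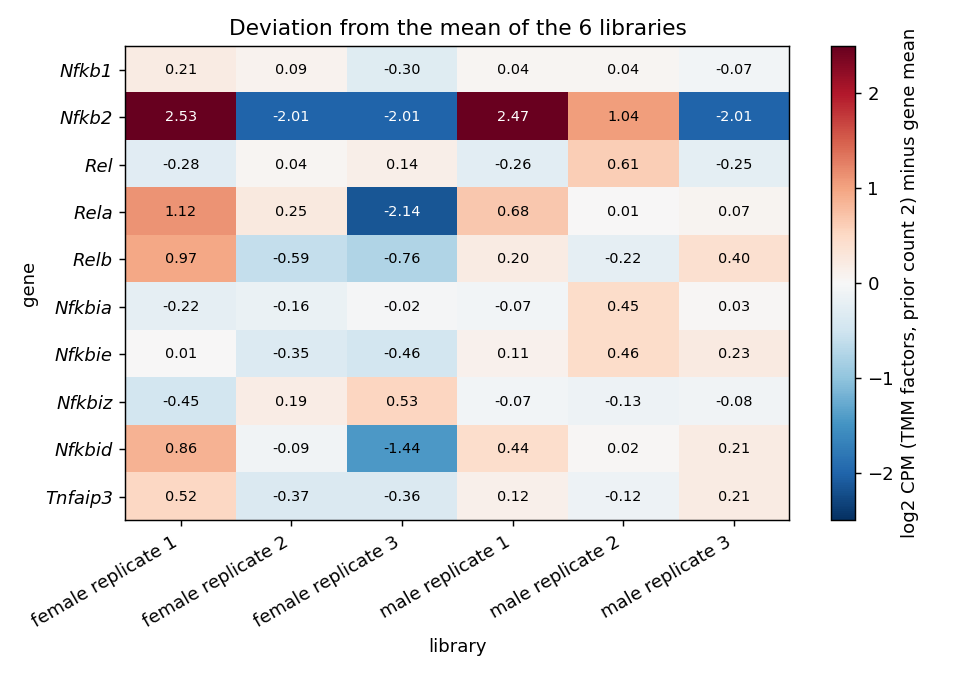
Deviation of each gene in each library from its mean over 6 libraries, in log2 CPM scaled with TMM factors (prior count 2), with red for above and blue for below the mean. Female replicate 3 is low for Rela (-2.14) and Nfkbid (-1.44) and high for Nfkbiz (0.53), male replicate 2 is high for Rel, Nfkbia and Nfkbie, and Nfkb2 varies most.

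The study's comparison asks which genes differ between females and males in these activated B cells. None of the 10 genes passed the threshold, an adjusted p under 0.05 over all tested genes with the quasi-likelihood test of edgeR, where adjusted p values ran from 0.999 to 1. Over all genes 0.0575% were called (7 of 12172, 3 higher and 4 lower in females). At an unadjusted p under 0.05 there were 0 of the 10 genes, and 352 of all tested genes. DESeq2 and limma-voom each called 0 of the 10 as well. On the log2 scale, 8 of the 10 fold changes (female over male) were negative, with a median of -0.10 against 0.00 for all tested genes. This count depended on single libraries. It was 4 of 10 without female replicate 3 (median 0.09) and 6 of 10 without female replicate 2 (-0.04) or male replicate 1 (-0.05), while without female replicate 1 it stayed at 8 and the median was -0.57.

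For the abundant genes the intervals were narrower than for the scarce ones. The log2 fold change of Nfkb1 was 0.01 ± 0.17 (SE), and its 95% interval ran from 0.771-fold to 1.32-fold. Rel had -0.11 ± 0.26, with an interval from 0.606-fold to 1.41-fold, and Nfkbiz 0.24 ± 0.24, from 0.805-fold to 1.72-fold. The interval of Tnfaip3 (-0.09 ± 0.27) went from 0.613-fold to 1.45-fold, and that of Nfkbia (-0.29 ± 0.18) from 0.618-fold to 1.09-fold. The interval of Nfkbie, a scarce gene, was wider, from 0.409-fold to 1.16-fold, and a 2-fold lower level in females lies within it. For Rela, Relb and Nfkbid the intervals were wide, from 0.304-fold to 3.14-fold for Rela, 0.374-fold to 2.46-fold for Relb and 0.370-fold to 2.12-fold for Nfkbid, so that a 2-fold difference in either direction lies within all of them. Without female replicate 3 the sign turned for Rela (log2 fold change 0.46), Relb (0.23), Nfkbid (0.22), Nfkb2 (0.18) and Tnfaip3 (0.05), and that of Nfkbiz went to 0.00. None of them was called.

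Nfkbia and Nfkbie were the 2 genes of the 10 in which every female library lay below every male one. That arrangement was found in 7.55% of tested genes. None of the 10 showed the reverse, for which the share of tested genes is not given here. In means, Nfkbia was at 69.8 ± 4.72 CPM in females and 93.6 ± 18.8 CPM in males (SD, n = 3), with a log2 fold change of -0.29 ± 0.18 and an unadjusted edgeR p of 0.145. Nfkbie was at 1.97 ± 0.585 and 3.10 ± 0.400 CPM, with -0.54 ± 0.32 and an unadjusted edgeR p of 0.134. Neither difference passed the test. When TMM factors, which correct the totals for differences in composition, were applied, female replicate 3 rose to 79.0 CPM for Nfkbia, above male replicate 1 at 76.5 CPM. Nfkbie then remained as the 1 gene without overlap, against 4.72% of tested genes. With the trend of transcript length and GC content removed, the log2 fold change of Nfkbia was 0.05 and that of Nfkbie -0.31.

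**Figure D4:**
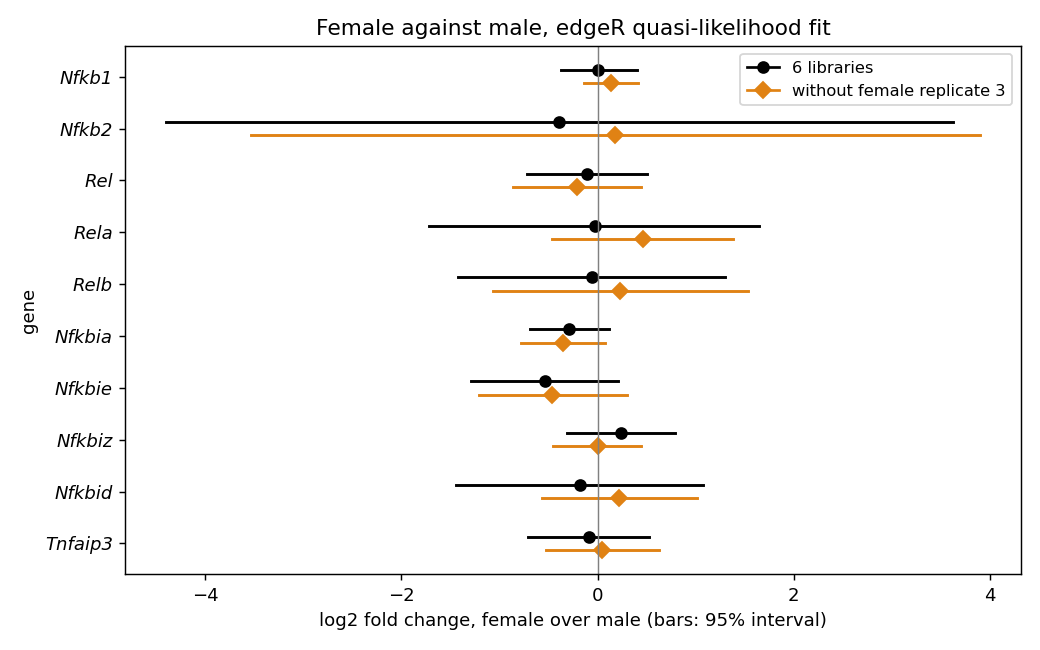
Log2 fold change, female over male, of the 10 genes from the edgeR fit, with 95% intervals as bars, for all 6 libraries (black circles) and without female replicate 3 (orange diamonds). Every interval includes 0 in both fits, and the interval of Nfkb2 is the widest, from -4.40 to 3.63 with all libraries.

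Ratios of 2 members within a library do not depend on how libraries are scaled, so 4 of them were compared between the sexes with two-sided exact permutation tests, for which the smallest p that 3 against 3 allows is 0.1. The log2 ratio of Nfkbia to Nfkb1 was -0.93, -0.75 and -0.22 in females and -0.61, -0.09 and -0.40 in males, with exact p = 0.4 (0.8 adjusted over the 4 ratios). The log2 ratio of Rel to Rela was 8.10 ± 1.99 in females and 7.61 ± 0.78 in males, and that of Relb to Rela -1.01 ± 1.21 and -1.27 ± 0.44 (SD, n = 3, exact p = 0.8 for each). For the ratio of Nfkb2 to Nfkb1, 3 of 6 libraries held no Nfkb2 counts and only a floor of 3 counts could be used, so that ratio gives no comparison. In the other ratios the sexes overlapped, and the female spread of the Rel to Rela ratio came mostly from female replicate 3, at 10.29. A ratio cancels the scaling of a library but not a deviation that goes with GC content. Rel and Rela had 42.5% and 59.4% GC, and the part of GC content in these ratios was not tested.

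The rest of the pathway showed no called gene either. Among genes of the canonical kinase arm, which carries signals from adaptor complexes to the IκB kinase, 8 of 9 were tested, 0 were called in either direction, and the log2 fold changes (4 above and 4 below 0) had a median of 0.02. The kinase subunit gene Ikbkb was at 88.5 ± 9.90 CPM in females and 101 ± 5.60 CPM in males. Map3k7, the gene of the kinase TAK1 upstream of it, was at 194 ± 9.77 and 190 ± 3.48 CPM, and Tab2, an adaptor of TAK1, at 114 ± 7.26 and 115 ± 2.98 CPM. In the noncanonical arm 6 of 7 genes were tested and 0 called, with a median of -0.06. Traf3, which restrains that arm, was at 63.8, 80 and 72.4 CPM in females and 59.5, 70.1 and 62.6 CPM in males, and Tnfrsf13c, the gene of the BAFF receptor, at 109 ± 12.2 and 99.6 ± 19.8 CPM. Cd40, a receptor gene that feeds both arms, was at 36.2, 20.6 and 11.4 CPM in females and 26.3, 35.7 and 24.2 CPM in males, with the lowest value again in female replicate 3.

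All 13 further regulators of IκB proteins and ubiquitin chains were tested, and 0 were called, with 4 positive, 9 negative and a median of -0.04. Among them the deubiquitinase genes Cyld (24.3 ± 2.91 CPM in females, 21.8 ± 3.18 in males) and Otulin (11.7 ± 4.86 and 15.3 ± 1.05) and the ubiquitin ligase gene Itch (205 ± 13.1 and 192 ± 5.59) had the smallest p values. Of 30 known target genes of NF-κB in B cells, 26 were tested and 0 called, with 11 positive, 15 negative and a median of -0.08, which was 0.17 without female replicate 3. Only 2 of them had an unadjusted edgeR p under 0.05. Irf4, a transcription factor gene induced by Rel, was at 144, 225 and 123 CPM in females and 111, 139 and 109 CPM in males. Its log2 fold change was 0.58 ± 0.22 (edgeR, adjusted p = 0.999), and the sexes overlapped, since male replicate 2 lay above female replicate 3. Irf4 is also 1 of 7 plasma cell markers, 6 of them above 3 counts in every library and Tnfrsf17 at 0, whose summed level was 279 to 488 CPM in females and 275 to 318 CPM in males. Within that list, Igj was at 37.7, 48.4 and 48.2 CPM in females and 17.1, 17 and 18.3 CPM in males, and Prdm1 at 22.1, 61.5 and 22.9 CPM in females and 11.7, 12.8 and 12.9 CPM in males. Every female lay above every male for both, as the sum did not show. The share of tested genes with that arrangement is not given here. Xbp1, Mzb1 and Sdc1 overlapped between the sexes, like Irf4. Xbp1 was at 124, 118 and 72.9 CPM in females and 115, 122 and 104 CPM in males. Mzb1 was at 45.7, 32.7 and 9.89 CPM in females and 37.5, 25.1 and 28.1 CPM in males. None of the markers was called. The part of plasma cells in the Irf4 values was not tested. Bcl2a1b, a survival gene of the Bcl2 family, was at 285, 241 and 169 CPM in females and 323, 355 and 289 CPM in males (-0.36 ± 0.15, edgeR adjusted p = 0.999), and every female lay below every male. It has near-identical copies between which reads may be split, so its level is uncertain. Il10, the gene of an inhibitory cytokine, was at 9.45, 27.1 and 7.21 CPM in females and 5.87, 10.6 and 5.61 CPM in males, with the high value in female replicate 2 alone.

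Several of the 10 genes ranked the libraries alike. Relb and Tnfaip3 had the same order of all 6 libraries in CPM of the library total, an order found in 1.5% of tested genes. It ran from female replicate 1 through male replicates 3, 1 and 2 to female replicates 2 and 3. With TMM factors, female replicates 2 and 3 changed places for Tnfaip3 (34.8 and 34.9 CPM). Nfkbid differed from the order in CPM of the library total only in the places of male replicates 1 and 3. Nfkbiz ran against them, with female replicate 1 lowest and female replicate 3 highest. These similarities were noticed after the values were seen. The mean centred log2 CPM of the 10 genes was 0.53, -0.30 and -0.68 in females and 0.37, 0.22 and -0.13 in males. Nfkb2 weighed heavily in it, and without Nfkb2 the mean was 0.31, -0.11 and -0.54 in females and 0.13, 0.12 and 0.08 in males, with the opposite sign in male replicate 3. Of 5049 other genes with at least 20 CPM, Mrpl35 (Pearson r = 0.977), Chmp4b (0.976), Gmds (0.974), 5031439G07Rik (0.972) and Focad (0.972) followed the mean of all 10 most closely over the 6 libraries. With female replicate 3 left out, Ube2v1, Rpn2, Gtf3c2, Rps2-ps10 and Mrpl35 were closest over 5 libraries, so 1 gene was in both lists. With Nfkb2 left out of the mean, Gpi1 (0.997), Prrc2b (0.997), Ubr4 (0.997), Syk (0.996) and Nup210 (0.995) were closest over 6 libraries, and none of them was among the 5 genes found with all 10. With so few libraries many genes reach a high r, and the values are given as a description. Female replicates 1 and 3 also lay at opposite ends of the first principal component of all tested genes. Their scores were -47.9 and 94.2, and the component held 50.8% of the variance. The part of such differences between whole libraries in the shared order and in these correlations was not tested.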

How the data were processed

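The deposited table holds estimated counts per gene symbol, 1 column per mouse. The tools named are kallisto and DESeq2 and the build is GRCm38.p6, per the submitters' processing notes, which carry no versions. The sources used here name no transcript annotation. The estimates deposited by the authors may have been scaled by transcript length. CPM is the estimated count divided by the column total and multiplied by 1e6, and estimates under 0.001 counts were read as 0.

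For tests, counts were rounded and females compared with males in edgeR 4.0.16 (R 4.3.3): filterByExpr, TMM factors, glmQLFit, glmQLFTest on a model of sex alone, adjusted by Benjamini-Hochberg over 12172 genes. The standard error is the log2 fold change divided by the square root of F, and 95% intervals use the test's degrees of freedom. The fit was also run on simulated counts with known changes. These held neither an outlying library nor a GC trend, and no result given here rests on them. Alternatives used DESeq2 1.42.0, limma 3.58.1 (voom), other scaling and filters, a replicate block, removal of a length and GC trend (splines, 4 degrees of freedom, 98.8% of tested genes) and each library left out. Intervals and floors cover counting error or spread between mice only.

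Coordinates, transcript lengths and GC content are from GENCODE M21, on the same build, where 39227 of 41669 symbols matched directly and 969 by synonym. Promoters are from RefSeq GRCm38.p6. A planned comparison of protein sequences was not run. The 10 genes and the lists were chosen with earlier results of these data known. All 10 are named. From each other list the 3 tested genes with the smallest p are named, and the 5 genes most like the mean of the 10. Figures were drawn with matplotlib 3.10.9.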

Additional observations from a re-analysis of the deposited data

How the results depend on the processing

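None of the 10 genes was called by edgeR, DESeq2 or limma-voom in any of the 15 alternatives (Nfkb2 was not tested at a minimum of 1 CPM in 3 libraries), and neither was any gene of the other pathway lists. Of 149 refitted log2 fold changes of the 10 genes, 125 kept their sign and 24 changed it, 17 of them in fits that left out a library. Nfkb1 (0.01) changed to -0.01 with limma-voom, -0.10 with library totals only, 0.00 (just below 0) with the replicate block, -0.02 with the length and GC trend removed and -0.05 with the replicate block and that trend removed. With the trend removed Relb changed to 0.01 and Nfkbia to 0.05. Library totals only moved the median of all genes to -0.12 and that of the 10 genes to -0.20. The median of the 10 genes was -0.29 with limma-voom and -0.27 with the replicate block, while that of all genes was -0.03 in both. With limma-voom, Nfkb2 was at -1.47, Rela at -0.58 and Nfkbid at -0.48, against -0.39, -0.03 and -0.18 in the main fit. Rel (-0.06), Nfkbia (-0.27) and Nfkbie (-0.54) moved little with limma-voom.

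Over the fits that each left out 1 library, log2 fold changes ran from -0.10 to 0.14 for Nfkb1, -7.30 to 1.02 for Nfkb2, -0.26 to 0.23 for Rel, -0.82 to 0.46 for Rela, -0.90 to 0.23 for Relb, 0.00 to 0.46 for Nfkbiz, -0.86 to 0.22 for Nfkbid and -0.44 to 0.06 for Tnfaip3. Nfkbia (-0.39 to -0.11) and Nfkbie (-0.70 to -0.43) stayed negative there. Without female replicate 1 the median of the 10 genes was -0.57. The cause of these changes was not tested.

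The count of called genes over the whole table, 7, was 32 with DESeq2, 11 without the low-count filter and 11 with the trend removed, and 4 to 12 with 1 library left out. With 1 library left out, the female minus male log2 ratio of Nfkb2 to Nfkb1 (-0.63, set by the 3-count floor in 3 libraries) ran from -1.81 to 0.28, that of Rel to Rela (0.49) from -0.60 to 1.34 and that of Relb to Rela (0.27) from -0.39 to 0.80. The number of neighbouring pairs that kept their order ran from 5 to 7. Same-numbered mice had correlations of 0.22, 0.04 and 0.07 between their deviations from the group means, so the numbers were not taken as pairs. The replicate block called 7 genes. On TMM-scaled CPM, a scaling chosen for this count after the data were seen, 1 gene in place of 2 had every female below every male.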
